A study of Mus musculus with 12 samples.

Results

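miR-128 was followed through its 3 mature strands, mmu-miR-128-3p, mmu-miR-128-1-5p and mmu-miR-128-2-5p, in small-RNA libraries of mouse hippocampus. The 3 rows were chosen by name from the 1908 named miRNAs of the deposited count table, with no threshold on any value. The miRNA itself was selected with the genotype comparison of these same counts in view, so its levels, ratios and fold changes are a description. The p-values beside them, from the fit over all miRNAs or from permutations of 3 ratios, are no independent support for a difference. The libraries came from the hippocampi of 6 GLD2KO mice (genotype label GLD2-/-) and 6 wild-type (WT) mice, all males of the C57BL/6 strain aged 3 months. The animals were littermates from matings of Gld2 heterozygotes, and no treatment or batch is labelled. The Gld2 protein is a non-canonical polymerase that extends RNA 3′ ends with adenosines, and the study asked what part it plays in adding untemplated nucleotides to miRNAs. Counts per miRNA carry no added bases, so the comparison made here is one of relative abundance, and the genotypes are as labelled.

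miR-128 is an abundant, neuron-enriched miRNA of the vertebrate brain that in mice restrains neuronal excitability. It is cut from hairpins of a pair of genes, Mir128-1 and Mir128-2, and in mouse forebrain the Mir128-2 gene is known as the main source. The 3p strand is the guide that is loaded into Argonaute, the protein that carries miRNAs to their targets, while the 5p strands are passenger strands that are mostly degraded. A guide finds its targets mainly through its seed, bases 2 to 8.

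The mature strands are shown because the 3p strand cannot be assigned to a hairpin and the 5p strands can. Sequences are from RefSeq on GRCm38.p6, where all 3 names matched, and capitals mark the seed.
miR-128-3p: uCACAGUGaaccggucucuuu
miR-128-1-5p: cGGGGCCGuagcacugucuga
miR-128-2-5p: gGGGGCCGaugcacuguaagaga
The 3p strand has the same 21 bases in both hairpins. The 5p strands are 21 and 23 bases long and share 16 of 23 aligned positions (69.6%), their seeds among them. The hairpins themselves are given with the mature strands in capitals.
Mir128-1: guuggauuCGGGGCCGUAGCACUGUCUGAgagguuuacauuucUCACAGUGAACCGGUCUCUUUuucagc
Mir128-2: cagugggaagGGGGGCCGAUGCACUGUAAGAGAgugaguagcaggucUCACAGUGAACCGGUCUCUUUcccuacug
Mir128-1 (chr1:128202361-128202430, plus strand, 70 bases) lies in an intron of R3hdm1, and Mir128-2 (chr9:112118636-112118711, minus strand, 76 bases) in an intron of Arpp21, each on the strand of its host gene and overlapping no annotated exon on that strand. The hairpins share 55 of 77 aligned positions (71.4%), and their predicted folding energies were -29.3 kcal/mol for Mir128-1 and -37.3 kcal/mol for Mir128-2. After the 3′ end of miR-128-3p the next base is U in Mir128-1 and C in Mir128-2, and after both 5p strands it is G. An adenosine added to any of these mature ends is therefore not encoded in the hairpin.

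Libraries held 2197915 to 2762035 counts in GLD2KO and 2254812 to 3761106 counts in WT. Levels are given as CPM, counts per 1000000 after TMM scaling of library sizes. Neuronal miRNAs were present throughout: the summed level of miR-124-3p, miR-9-5p and miR-138-5p ran from 134673 to 235147 CPM in GLD2KO and from 93580 to 343177 CPM in WT. Summed markers of oligodendrocytes ran from 9304 to 30573 CPM in GLD2KO and from 8807 to 40399 CPM in WT. Those of red blood cells ran from 1182 to 24292 CPM in GLD2KO and from 678 to 22961 CPM in WT, and those of choroid plexus from 783 to 13421 CPM in GLD2KO and from 1404 to 4923 CPM in WT. The ranges of the genotypes overlapped for each of these lists. Summed markers of endothelium and smooth muscle ran from 4919 to 7799 CPM in GLD2KO and from 4401 to 14397 CPM in WT. The leukocyte miR-223-3p lay between 20.04 and 87.4 CPM in GLD2KO and between 6.94 and 351 CPM in WT. These overlapped as well, and no listed marker was at 0 in all libraries. In bulk tissue, fewer cells of a type and less RNA per cell cannot be told apart.

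The guide strand miR-128-3p was among the 26 miRNAs with the most counts in every library but GLD2KO replicate 4, and its levels in the genotypes overlapped. In GLD2KO its lowest, median and highest levels were 1619, 14857 and 36021 CPM. In WT they were 6377, 16388 and 26728 CPM. The highest and the lowest of all 12 libraries were both GLD2KO, replicates 1 and 4. Its rank by counts among the 1908 miRNAs ran from 7 to 66 in GLD2KO, with a median of 14.5, and from 12 to 26 in WT, with a median of 14. Means were 16629.5 ± 11389.9 CPM in GLD2KO and 17379 ± 7253 CPM in WT (SD, n = 6 each).

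**Figure D1:**
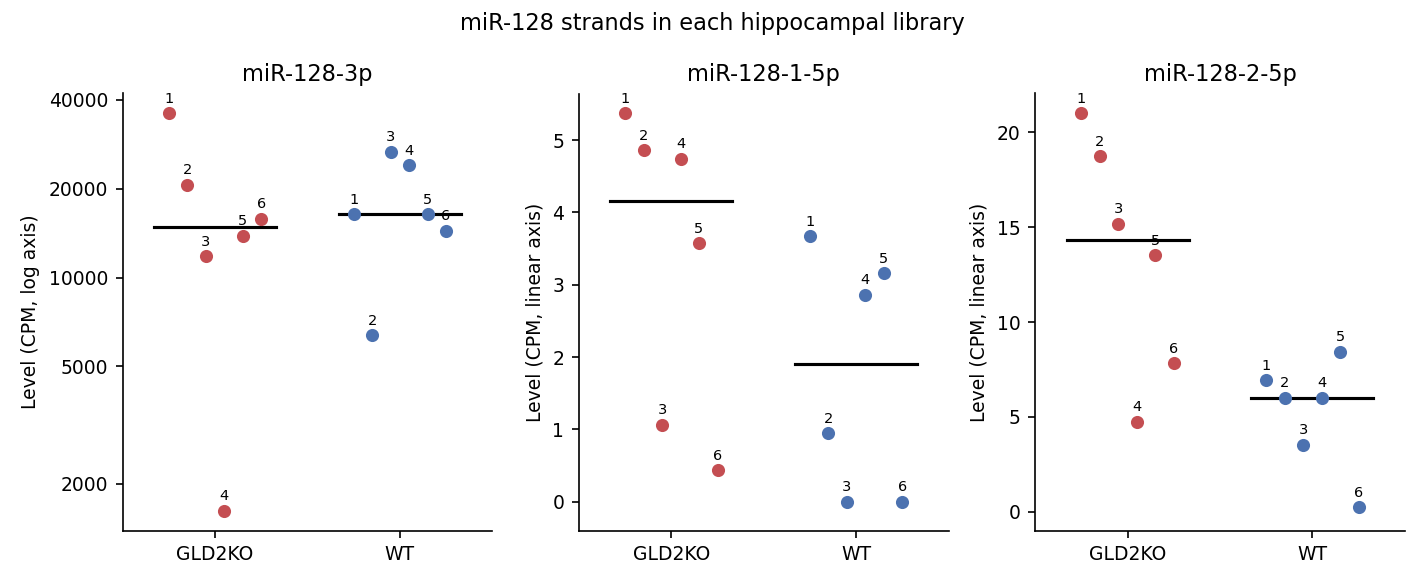
Level of each miR-128 strand by library, in CPM, on a log axis for miR-128-3p and linear axes for the 5p strands; points are libraries numbered by replicate and lines are group medians. For miR-128-3p GLD2KO replicate 4 lies at 1619 CPM, under every other library, while miR-128-2-5p has a median of 14.3 CPM in GLD2KO and 6.02 CPM in WT.

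The fitted log2 fold change of miR-128-3p, GLD2KO over WT, was -0.06 (SE 0.52, 95% confidence interval -1.15 to 1.03), with an edgeR quasi-likelihood adjusted p of 0.990 over 521 tested miRNAs. As a ratio, the interval runs from 0.449 to 2.04. The sign turned to 0.16 without GLD2KO replicate 4, to 0.18 without WT replicate 3, to 0.069 without WT replicate 4 and to 0.048 with library totals as the only scaling. Of all tested miRNAs 0 (0%) passed an adjusted p of 0.05 in edgeR, and 25 (4.80%) had an unadjusted p under 0.05. DESeq2 and limma-voom also called 0, with 45 and 23 miRNAs at an unadjusted p under 0.05. The 3 strands together took 1.71 ± 0.961% of a library's counts in GLD2KO and 1.66 ± 0.576% in WT (SD, n = 6 each). The genotypes differed by 0.0570 percentage points (two-sided exact permutation over 924 relabellings, p = 0.905, adjusted p = 0.905 over 3 such tests). That difference was -0.189 without GLD2KO replicate 1 and 0.374 without GLD2KO replicate 4.

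GLD2KO replicate 4 held 3414 counts of miR-128-3p, where the other GLD2KO libraries held 34915 to 73705 and the WT libraries 20145 to 83742. On the log2 CPM scale it lay 3.34 below the median of the other 11 libraries. Among 81 miRNAs averaging 1000 CPM or more this was the second lowest distance in that library, next to miR-107-3p at -3.37. Of those 81, 7 lay more than 2 below the others there, with miR-103-3p at -2.50, miR-451a at -2.73 and miR-219a-5p at -2.09 among them. The summed neuronal markers of that library, 189042 CPM, lay inside the range of the other GLD2KO libraries. The markers in that sum differed in direction, with distances of -1.53 for miR-138-5p, -0.61 for miR-124-3p and 1.20 for miR-9-5p. Of 14 neuron-enriched miRNAs at this abundance 6 lay below the median of the other libraries in GLD2KO replicate 4, and their median distance was 0.23, against 0.51 over all 81.

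Large distances were not confined to this library or this miRNA. GLD2KO replicates 1 and 5 had 4 miRNAs each that lay more than 3 from the other libraries, WT replicate 3 had 5, GLD2KO replicate 4 had 2, and GLD2KO replicate 6 and WT replicate 6 had 1 each. The remaining 6 libraries had 0. Some related miRNAs moved together in these counts and others did not. In GLD2KO replicates 1 and 5 the 4 were the same, miR-30b-5p, miR-30c-5p, miR-30d-5p and miR-30e-5p. In WT replicate 3 the 5 included miR-103-3p at -3.35 and miR-107-3p at -3.44. In that same library miR-30b-5p lay at 1.28 and miR-30c-5p at -1.02. In GLD2KO replicate 3 miR-221-3p lay at -1.28 and miR-222-3p at 1.97. The next largest distances of miR-128-3p were -1.36 in WT replicate 2 and 1.19 in GLD2KO replicate 1.

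**Figure D2:**
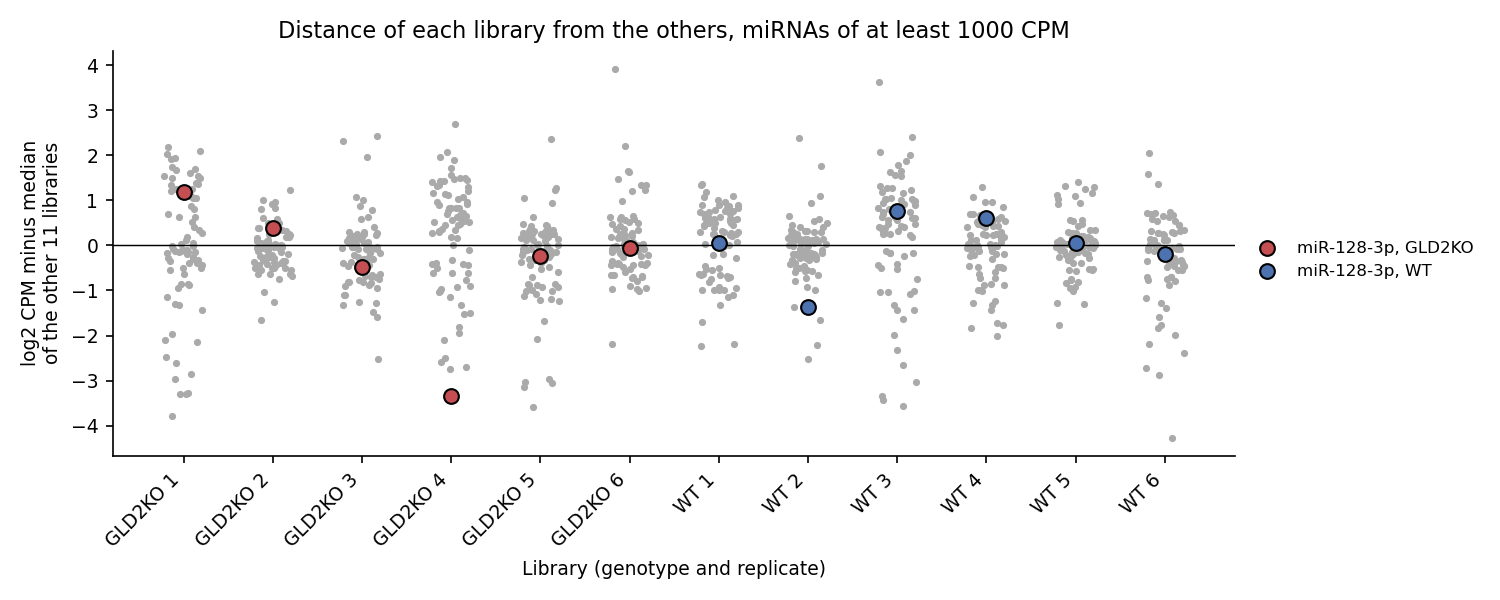
Distance of each library from the median of the other 11 in log2 CPM, for 81 miRNAs averaging 1000 CPM or more (grey points) and for miR-128-3p (large points). miR-128-3p lies at -3.34 in GLD2KO replicate 4 and between -1.36 and 1.19 in the other libraries.

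The passenger strand of Mir128-2, miR-128-2-5p, was rare. GLD2KO replicates 1 to 6 held 43, 54, 57, 10, 34 and 18 counts, and WT replicates 1 to 6 held 17, 19, 6, 21, 32 and 1. The 4 highest levels were all in GLD2KO, while GLD2KO replicates 4 and 6 lay inside the WT range, so the groups overlapped. Means were 13.5 ± 6.25 CPM in GLD2KO and 5.20 ± 2.90 CPM in WT (SD, n = 6 each). The fitted log2 fold change was 1.37 (SE 0.55, 95% confidence interval 0.23 to 2.51), a ratio of 2.59, and it did not pass (edgeR adjusted p = 0.815). Its unadjusted p was 0.0213, the 13th lowest of the 521, where 17 miRNAs (3.26%) were higher and 8 (1.54%) lower at an unadjusted p under 0.05. Over each library left out in turn the log2 fold change ran from 1.11 without WT replicate 6 to 1.59 without WT replicate 5, at adjusted p values of 0.551 to 0.958.

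The passenger strand of Mir128-1, miR-128-1-5p, was rarer still. GLD2KO replicates 1 to 6 held 11, 14, 4, 10, 9 and 1 counts, and WT replicates 1 to 6 held 9, 3, 0, 10, 12 and 0. A count of 0 allows up to 1.77 CPM in WT replicate 3 and 0.734 CPM in WT replicate 6, as counting error only. It did not pass the low-count filter and was the single member left out of the main test. It reached the filter's 3.67 CPM before scaling in 4 GLD2KO libraries and in 0 WT libraries. miR-128-2-5p did so in 6 GLD2KO and 4 WT libraries, and miR-128-3p in all 12. After scaling miR-128-1-5p stood at 3.68 CPM in WT replicate 1 and at 3.58 CPM in GLD2KO replicate 5, so its split depends on the scaling. With no filter miR-128-1-5p had a log2 fold change of 0.82 (SE 0.62, 95% confidence interval -0.40 to 2.04; edgeR adjusted p = 0.699 over 1325 miRNAs).

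As the 5p strands differ in sequence, they show how the passenger counts divide between the hairpins, which the shared 3p strand cannot. Over all libraries the 5p counts were 312 from Mir128-2 and 83 from Mir128-1. miR-128-2-5p was the more frequent in 11 of the 12 libraries and equal to miR-128-1-5p in GLD2KO replicate 4. Its share of the 5p counts ran from 50% to 94.7% in GLD2KO, with a mean of 79.4 ± 16.1%, and from 65.4 to 100% in WT, with a mean of 82.0 ± 15.7% (SD, n = 6 each). The difference of -2.65 percentage points had an exact permutation p of 0.771 (adjusted p = 0.905), and became 3.22 without GLD2KO replicate 4, 0.938 without WT replicate 3 or without WT replicate 6, and 0.32 as a log2 ratio. The summed counts differed in the other direction, with 216 of 265 5p counts from Mir128-2 in GLD2KO (81.5%) and 96 of 130 in WT (73.8%). The means weight each library equally, including the WT libraries at 100% that hold 6 and 1 counts, so no direction is read from either.

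Depth limits these shares. In GLD2KO replicate 2, with 68 counts of the 5p strands, the exact (Clopper-Pearson) 95% interval of the share was 67.9 to 88.3%. In GLD2KO replicate 4, with 20 counts, it was 27.2 to 72.8%. In WT replicate 6 the share of 100% rests on 1 count, with an interval of 2.50 to 100%. Intervals cover counting error only.

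Within a library, miR-128-3p outnumbered the 5p strands by a wide margin that differed between libraries. There were 171 to 1913 counts of the 3p strand for each 5p count in GLD2KO, the lowest in replicate 4. In WT there were 916 to 58837, the highest in replicate 6, where the 5p strands held 1 count, and the next highest, 7567, in replicate 3, where they held 6. On the log2 scale the 5p to 3p ratio was -9.59 ± 1.20 in GLD2KO and -11.70 ± 2.02 in WT (SD, n = 6 each), with overlapping ranges of -10.86 to -7.38 in GLD2KO and -15.26 to -9.81 in WT. The difference of 2.11 did not pass (two-sided exact permutation p = 0.0346, adjusted p = 0.104 over 3 tests). It was 1.40 without WT replicate 6 (adjusted p = 0.208), 1.67 without GLD2KO replicate 4 (adjusted p = 0.273) and 2.49 without WT replicate 2 (adjusted p = 0.0390). The last of these is the single setting with an adjusted p under 0.05 among the libraries left out in turn. It supports no difference, as the miRNA was selected with these values in view and WT replicates 3 and 6 rest on 6 and 1 counts of the 5p strands.

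**Figure D3:**
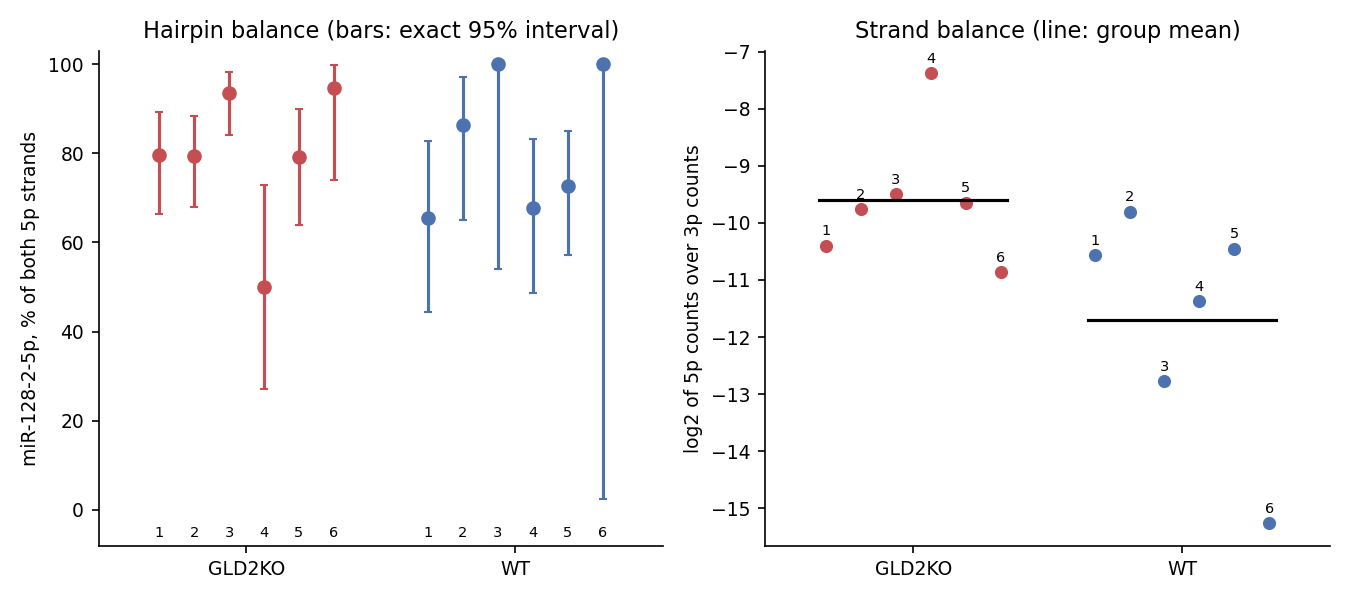
Left, miR-128-2-5p as a percentage of the counts of both 5p strands in each library, with exact 95% intervals; right, log2 of the summed 5p counts over the 3p counts, with group means as lines and libraries numbered by replicate. The hairpin shares of the genotypes overlap, and WT replicate 6 has the lowest strand ratio, at -15.26.

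The same layout, 1 strand shared by hairpins and a specific strand from each, was found by name for 28 miRNAs, of which 19 had at least 10 mean counts of the shared strand and of the specific strands together. By mean counts miR-128 had 1424 shared counts per specific count, the second highest of the 19 after miR-26a at 1431, where the median was 104. The minimum left out miR-24, which had a higher ratio of 3113 on specific strands averaging 3.42 and 1.58 counts. The rank therefore holds for the 19 only. In single libraries miR-128 ranked first in 4, among the first 3 in 9, and lowest, at ninth, in GLD2KO replicate 4. The first places in WT replicates 3 and 6 rest on 6 and 1 counts of the 5p strands. miR-129 was the single miRNA of the 19 with fewer shared than specific counts, at 0.0942. Ligation and sequence differences between strands enter such ratios, so they compare libraries better than miRNAs.

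The share of hairpin 2, 79.0% for miR-128, exceeded 50% in 12 of the 19. It ran over the 19 from 0.016% for miR-181a to 99.9% for miR-219a. At the low end it was 4.40% for miR-344d, 11.3% for miR-181b and 14.0% for miR-7a, near the middle 40.3% for miR-16, 48.4% for miR-138 and 54.2% for miR-29b, and on either side of miR-128 76.0% for let-7f and 84.6% for miR-26a. For let-7a and let-7c it may rest on shared reads, as let-7a-1-3p and let-7c-2-3p had nearly equal mean counts of 1459.92 and 1460.0.

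In limma 11 of these miRNAs, with at least 10 mean counts of each strand, could be tested for a genotype difference. The hairpin balance was called for 0 (0%, lowest adjusted p = 0.674) and the strand balance for 0 (0%, lowest adjusted p = 0.497), with 0 at an unadjusted p under 0.05 in either. miR-128 was not among them, as miR-128-1-5p had a mean of 6.92 counts. With a minimum mean of 1 count, which gave 17 miRNAs, the log2 difference of miR-128 was 0.32 (95% confidence interval -1.08 to 1.72, limma adjusted p = 0.748) for the hairpin balance and 2.11 (0.20 to 4.02, adjusted p = 0.275) for the strand balance. Over the 11 tested miRNAs the strand balance differences ran from -1.19 for miR-129 to 1.04 for miR-30c, with a median of 0.51.

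**Figure D4:**
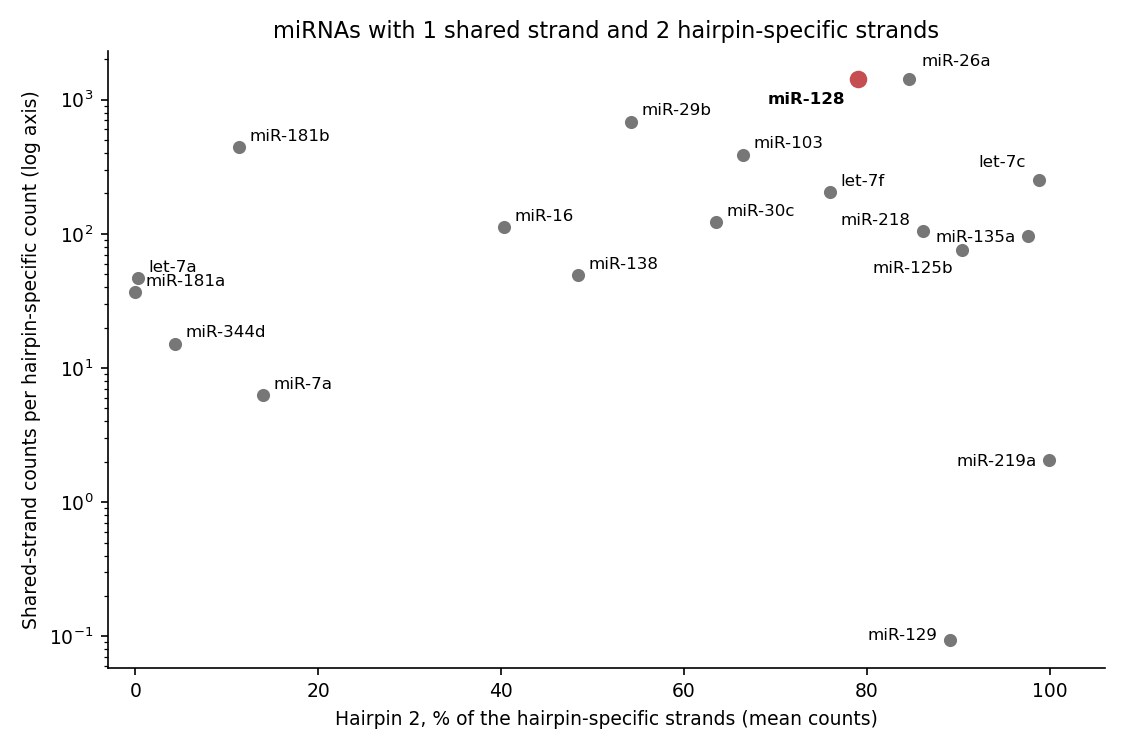
For 19 miRNAs, the share of hairpin 2 among the hairpin-specific strands (percent) against the shared-strand counts per hairpin-specific count (log axis), from mean counts over 12 libraries. miR-128 lies at 79.0% and 1424, close to miR-26a at 84.6% and 1431.

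The search of 1679 mature mouse names left out any match on 1 chromosome, so its list may not be complete. Among the matches kept, the 7 seed bases of miR-128-3p also stand near the 5′ end of 3 other miRNAs. They are shown because such miRNAs can pair with overlapping target sites, with the shared bases in capitals.
miR-27a-3p: uuCACAGUGgcuaaguuccgc
miR-27b-3p: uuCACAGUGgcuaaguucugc
miR-216a-3p: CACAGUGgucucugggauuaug
The bases are shifted by 1 position against miR-128-3p, to bases 3 to 9 in the miR-27 strands and to bases 1 to 7 in miR-216a-3p, so none of the 3 has the same seed. miR-27b-3p, the more abundant strand of that pair, had lowest, median and highest levels of 515, 984 and 1634 CPM in GLD2KO and of 649, 1320 and 2426 CPM in WT. For miR-27a-3p they were 132, 240 and 357 CPM in GLD2KO and 132, 231 and 560 CPM in WT. The genotypes overlapped for both, at log2 fold changes of -0.46 (SE 0.40, adjusted p = 0.978) for miR-27b-3p and -0.38 (SE 0.43, adjusted p = 0.978) for miR-27a-3p. In GLD2KO replicate 4 both were at their lowest GLD2KO levels. miR-216a-3p had 0 counts in all GLD2KO libraries and at most 0.317 CPM in WT, which is under the level that 3 counts give.

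Against 25 other neuron-enriched miRNAs, all tested, miR-128-3p lay inside the range. In GLD2KO 14 of these lay above and 11 below WT, and their log2 fold changes had a median of 0.04, where 306 of all 521 tested miRNAs lay above, 215 below and the median was 0.12. None of the 25 passed, and 0 had an unadjusted p under 0.05. Below miR-128-3p lay 9 of the 25, the lowest of them miR-7a-5p at -0.72 and miR-137-3p at -0.53. The most abundant, miR-124-3p, which promotes neuronal identity, was at -0.41 (SE 0.42), and miR-9-5p, a miRNA of neural progenitors and neurons, at 0.26 (SE 0.46). The lowest p of the list was that of the imprinted miR-127-3p, at 0.99 (SE 0.51, edgeR adjusted p = 0.841), and the highest fold change that of miR-495-3p, at 1.15 (SE 0.66).

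**Figure D5:**
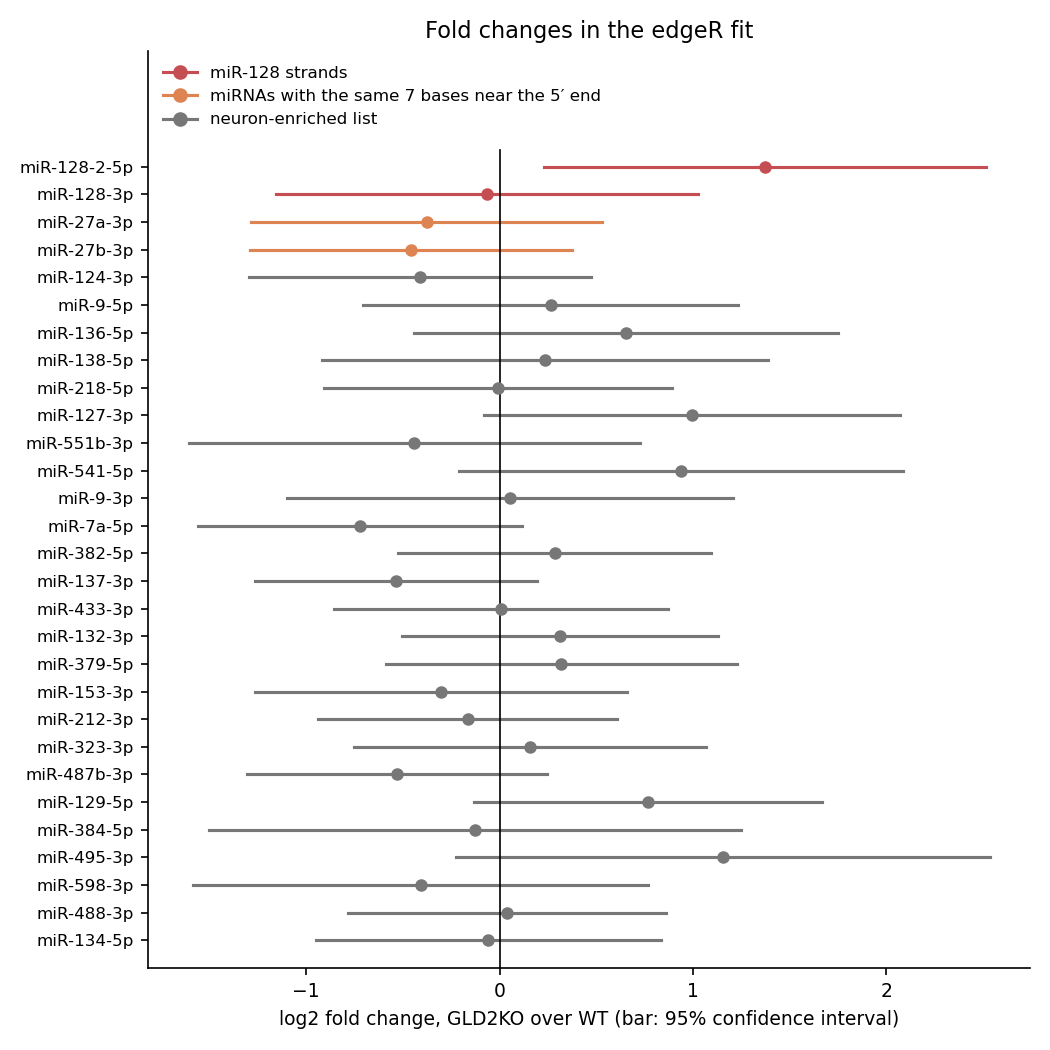
Log2 fold change, GLD2KO over WT, with its 95% confidence interval in the edgeR fit for the tested miR-128 strands, the miR-27 strands and 25 neuron-enriched miRNAs. Of the rows drawn, only the interval of miR-128-2-5p, 0.23 to 2.51, leaves out 0, and its adjusted p was 0.815.

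The miRNAs whose log2 CPM over the 12 libraries was most like that of miR-128-3p were miR-186-3p (Pearson r = 0.80), miR-431-3p (0.78), miR-376a-3p (0.78), miR-199a-3p (0.78) and miR-199b-3p (0.77), the highest of 520. The miR-199 strands had the same level in every GLD2KO library and the same or nearly the same in each WT library. Their values of r are therefore not independent of each other. All 5 were lowest of the 12 libraries in GLD2KO replicate 4, as miR-128-3p was. Without that library r was 0.58 for miR-186-3p and 0.030 for miR-431-3p, and 0 of the 5 stayed among the 5 most alike. miR-128-2-5p, cut from the same hairpin as part of the 3p counts, had r = 0.21 with miR-128-3p over the 12 libraries and ranked 141st of 520. These values share the library and its scaling and are a description of 12 libraries.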

How the data were processed

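The deposited values are raw counts, 1 whole number for each mature miRNA and library, with no normalization by the authors. Per the submitters' processing notes, Trimmomatic 0.32, cutadapt 1.3 and the build GRCm38 were used. The aligner, the counting tool and the handling of a read that matches both Mir128 hairpins were not given in the labels or notes used here. A change in that would scale miR-128-3p against the 5p strands. The labels and the design text differ on the lower bound of the RNA size cut from the gel. The 1 row that names no miRNA held 0 counts and was left out.

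Columns were matched to sample titles. The genotype test on counts ran under R 4.3.3 in edgeR 4.0.16 (TMM, filterByExpr, glmQLFit, glmQLFTest; 521 miRNAs) and Benjamini-Hochberg adjustment at 0.05. Ratios used a pseudocount of 0.5 and two-sided exact permutation over 924 relabellings, or limma 3.58.1. Log2 CPM used a prior count of 2. Hairpins were folded with RNAfold 2.7.2 and aligned globally, host genes came from GENCODE on GRCm38, and DESeq2 1.42.0 was an alternative. The edgeR and limma tests were also run on simulated data with known changes. The members, the neuron-enriched and marker lists and the tests were chosen with earlier results of these data known. Named beside the members were the 5 most alike miRNAs and those listed above with the seed bases near the 5′ end. Those of the same hairpin layout and list members by abundance and p were named too. Others were named after their values were seen. The miRNAs named miR-142a were not matched and are not used in the leukocyte markers.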

Additional observations from a re-analysis of the deposited data

Results flagged for a closer look

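In 26 sets of 6 libraries, covering the levels of the miR-128 and miR-27 strands in CPM and log2 CPM and the 3 ratios, 3 had a library that stood apart from the rest, and about 1 in 20 sets would by chance. On the log2 CPM scale miR-128-3p stood at 10.66 in GLD2KO replicate 4, against 13.53 to 15.14 in the other GLD2KO libraries. The share of miR-128-2-5p among the 5p strands was 50% in that same library, against 79.1 to 94.7% in the other GLD2KO libraries, with 10 counts of each strand behind it. On the log2 CPM scale miR-128-2-5p stood at -0.082 in WT replicate 6, a library with 1 count, against 2.08 to 3.19 in the other WT libraries. On the linear CPM scale neither level stood apart in this way.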

How the results depend on the processing

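The fold change of miR-128-2-5p stayed above 0 and did not pass in any of the alternatives, including DESeq2 (1.35), limma-voom (1.72) and no low-count filter (1.37). That of miR-128-3p never passed, was 0.048 with library totals only, and ran from -0.45 to 0.18 with each library left out. miR-128-1-5p had 0.86 in DESeq2. The share of counts of miR-128 differed by -0.0740 percentage points with TMM-scaled library sizes and by -0.189 to 0.374 with libraries left out, and the share of miR-128-2-5p by -5.98 to 3.22 points, or 0.32 as a log2 ratio. The log2 strand ratio differed by 1.40 to 2.49, by 2.23 with no pseudocount and by 1.69 with a pseudocount of 5. With no low-count filter edgeR called 7 miRNAs, none of them a miR-128 strand, against 0. For the miRNAs most like miR-128-3p, 0 of 5 stayed without GLD2KO replicate 4, a setting chosen after seeing the data. The replicate numbers are not labelled as a pairing, and same-numbered libraries deviated together with r of -0.23 to 0.24. With the number as a replicate block miR-128-2-5p was at 1.53 (edgeR adjusted p = 0.995), miR-128-3p at -0.24, the log2 strand ratio at an exact adjusted p of 0.0938, and the strand balance was called for 1 miRNA, miR-129; no other call changed. The causes of these changes were not tested. The 5p strands, at 1 to 68 counts a library, limit the share of miR-128-2-5p and the log2 strand ratio.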
